A study of Homo sapiens with 3 samples.

Results

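Ribosome biogenesis genes were followed as a set of 50 named nucleolar and rRNA-processing genes, all 50 of which were matched by gene ID among the 60609 genes listed. The set was chosen by name and known role: 8 genes of RNA polymerase I (Pol I) transcription, 3 of box C/D and 4 of box H/ACA small nucleolar ribonucleoproteins (snoRNPs), 5 nucleolar scaffolds and chaperones, 15 factors of the small ribosomal subunit and 15 of the large subunit. RNA came from NCI-H209, a cell line established from a human small cell lung cancer. The cells carried a doxycycline-inducible lentiviral hairpin in the Tet-pLKO-puro backbone: sh490 or sh1362 against YES1, a Src-family tyrosine kinase, or shGFP as the control. All 3 groups received doxycycline at 1 µg/mL every 2 days, and each was measured in 1 library. A difference of a hairpin from shGFP therefore has no replicate check and can include an effect of that hairpin alone.

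A ribosome is assembled in the nucleolus, where Pol I transcribes the long precursor of the rRNAs. Guide RNAs in snoRNPs place methyl groups and pseudouridines on that precursor, and the small-subunit processome and the large-subunit assembly factors fold and cut it around the ribosomal proteins. These genes are highly expressed in dividing cells, and many are textbook targets of MYC, which binds E-boxes of the sequence CACGTG.

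The E-box is a sequence feature that the choice of members did not use, and it was common in their promoters. RefSeq promoter windows (GRCh38.p14, 250 bases before to 50 after the start site) were at hand for 42 members in 52 windows. There was no entry for NOLC1, BOP1, RRP12, DDX18, NOP58, RRS1, RRP1B or TCOF1. CACGTG, which reads the same on both strands, stood in a window of 20 of the 42 members (47.6%). It stood in 8.77% of all 27305 genes with a window and in 13% of the 9052 protein-coding genes at a mean of 5 CPM or more (counts scaled to library size). In all 20 members it began within 50 bases of the start site, as it did in 40.0% of the 2396 genes of the genome that hold it. The position was not compared with that in the expressed protein-coding genes alone. The related word CACGCG, read on either strand, was less set apart: 31.0% of members, 13.5% of all genes and 23.2% of the expressed protein-coding genes, and 5 members held both words. By role the E-box was found in 9 of 14 small-subunit and 5 of 11 large-subunit members with a window, in 2 of 4 box H/ACA genes, 2 of 4 scaffolds, 1 of 2 box C/D genes and 1 of 7 Pol I genes. A match describes the letters and is not shown to be a bound site.

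The E-boxes of 10 members described below are printed 5′ to 3′ on the gene's strand, with 12 bases on each side and the motif in capitals, to show how close to the start site they stand and that the flanks differ. The first base of the motif lies 31 bases before the start site in DDX21, 16 before it in UTP4 and 11 before it in NOP10. It lies at position 7 after the start in FBL and GNL3, 14 in PES1, 15 in MRTO4, 16 in NOP14, 28 in MYBBP1A and 32 in GAR1.
DDX21 (chr10:68956604-68956633, plus strand): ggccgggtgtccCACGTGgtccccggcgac
UTP4 (chr16:69132621-69132650, plus strand): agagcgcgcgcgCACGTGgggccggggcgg
NOP10 (chr15:34343130-34343159, minus strand): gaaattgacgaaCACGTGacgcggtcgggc
FBL (chr19:39846356-39846385, minus strand): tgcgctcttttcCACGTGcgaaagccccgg
GNL3 (chr3:52686026-52686055, plus strand): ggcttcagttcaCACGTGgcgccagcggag
PES1 (chr22:30591880-30591909, minus strand): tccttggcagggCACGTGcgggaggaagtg
MRTO4 (chr1:19251807-19251836, plus strand): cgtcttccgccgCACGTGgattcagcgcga
NOP14 (chr4:2963374-2963403, minus strand): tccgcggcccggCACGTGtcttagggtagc
MYBBP1A (chr17:4555340-4555369, minus strand): ggggccggagcaCACGTGtttcgtgtttcg
GAR1 (chr4:109815781-109815810, plus strand): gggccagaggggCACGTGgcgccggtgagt

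The 250 bases before the start site are given for UTP4 and DDX21, the members with the lowest unadjusted p on the higher and on the lower side. UTP4 (chr16:69132399-69132648, plus strand): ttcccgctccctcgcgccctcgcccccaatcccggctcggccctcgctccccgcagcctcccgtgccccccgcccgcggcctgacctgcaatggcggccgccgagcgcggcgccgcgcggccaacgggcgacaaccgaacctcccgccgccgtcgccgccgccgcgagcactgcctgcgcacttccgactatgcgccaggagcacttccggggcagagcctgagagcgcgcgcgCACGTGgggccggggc
DDX21 (chr10:68956397-68956646, plus strand): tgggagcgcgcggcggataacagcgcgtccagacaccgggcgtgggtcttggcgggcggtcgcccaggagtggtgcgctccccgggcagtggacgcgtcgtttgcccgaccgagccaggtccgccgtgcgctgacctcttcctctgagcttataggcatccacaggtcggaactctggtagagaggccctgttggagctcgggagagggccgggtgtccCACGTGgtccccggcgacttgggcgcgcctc

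**Figure D1:**
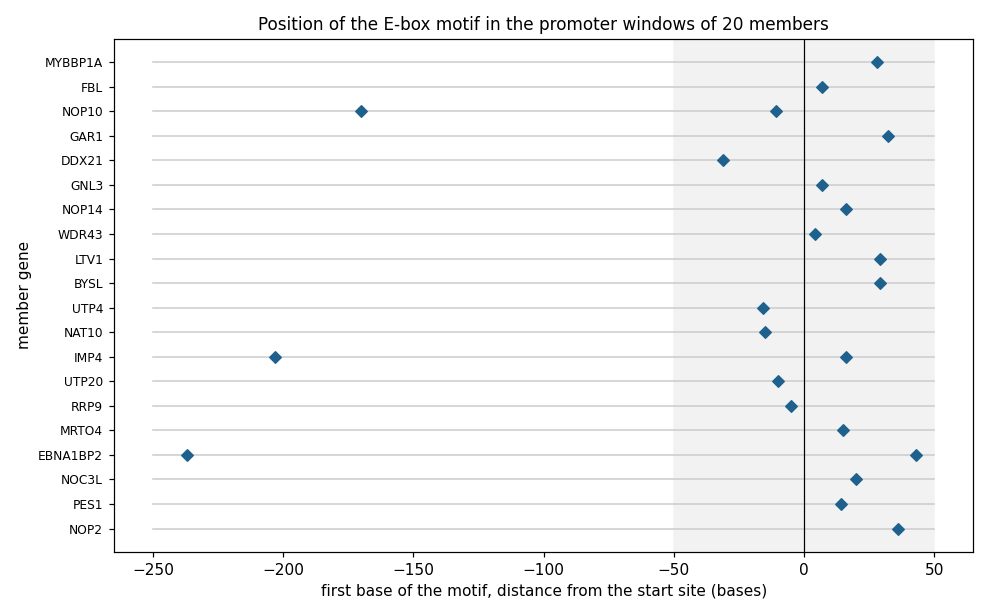
Position of the motif CACGTG in the promoter windows of the 20 members that hold it; the x axis gives the distance in bases of its first base from the start site, and each row is a gene. Every row has a diamond inside the shaded 50 bases on either side of the start, and NOP10, IMP4 and EBNA1BP2 have another farther upstream.

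Library totals were 7791747 counts (sh490), 7421552 (sh1362) and 4899006 (shGFP), and the 50 members together held 0.548%, 0.565% and 0.528% of them. The targeted gene checked the labels: counts of YES1 were 163 with sh490 and 216 with sh1362 against 1465 in shGFP, or 6.79% and 9.66% of the control level once normalized. All 10 neuroendocrine markers, DDC among them, were detected in every library, summing to 3508 CPM in sh490, 5124 in sh1362 and 3702 with shGFP. The red cell list (9 genes, led by HBB) summed to 18.8 and 20.4 CPM with the hairpins and 735 in shGFP, with AHSP and CA1 among the genes at 0 throughout. The leukocyte list (10 genes) summed to 2.27 and 3.52 CPM against 9.51, from 18, 26 and 46 counts. CD3E, CD2 and CD68 were among the genes with no count. S100A9 had 1 count in sh490, 0 in sh1362 and 20 in shGFP, S100A8 0, 0 and 5, and CSF1R 2, 4 and 10. CD14 went the other way with 14, 10 and 6. Fibroblast and endothelial genes summed to 20.9 and 12.3 CPM against 27.3. Mitochondrially encoded transcripts took 5.50%, 7.78% and 5.47% of the counts. The part of blood RNA and of the mitochondrial share in the values below was not tested. With library totals that leave out mitochondrial and globin genes, log2 folds were -0.72 and -0.75 for DDX21 and 0.94 and 1.005 for UTP4. This rescaling moves all genes of a library nearly alike. It therefore does not bear on how much RNA of other cells enters a given gene.

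Levels between genes are compared per length, as TPM, the counts divided by each gene's exonic length and scaled to the library. All 50 members were detected in each library. Their median level was 53.1 TPM with sh490, 51.3 with sh1362 and 45.2 with shGFP. The most abundant were nucleolar scaffolds: NPM1, a histone and ribosomal protein chaperone of the granular nucleolus, had 543 TPM in sh490, 622 in sh1362 and 433 with shGFP. The snoRNP chaperone NOLC1 had 445, 476 and 423 TPM in the same libraries, and NCL (nucleolin), a pre-rRNA binding protein, 392, 414 and 399. FBL (fibrillarin), the methyltransferase of box C/D snoRNPs, led its class with 386, 367 and 369 TPM, and NOP10, a small core protein of box H/ACA snoRNPs, had 302, 289 and 349. Pol I genes were lower, from 11.2 to 123 TPM over the 3 libraries, with TAF1D highest and MYBBP1A lowest.

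Small-subunit factors ranged from 16.5 to 118 TPM, with NOP14, a processome protein, highest. Large-subunit factors ranged from 1.34 to 136 TPM, with MRTO4, a stand-in for the stalk protein during assembly, highest and the rRNA methyltransferase NOP2 lowest. Counts of NOP2 were 25 with sh490, 13 with sh1362 and 18 with shGFP, and PPAN, a factor of early large-subunit particles, had 34, 31 and 26. These are the members under a mean of 5 CPM. Reads that overlap exons of several genes were left out of the counts, and 54.4% of the exonic bases of NOP2 and 49.2% of those of PPAN lie under exons of another gene, PPAN-P2RY11 in the case of PPAN. For IMP3, a protein of the U3 snoRNP, that share was 59.3%. Across the set 29 members shared some exonic bases and 10 shared over 20%, so their levels may be too low. NOP2 and PPAN were still the lowest when only unshared bases were counted as length, while IMP3 moved to rank 27, against rank 45 over its full length.

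**Figure D2:**
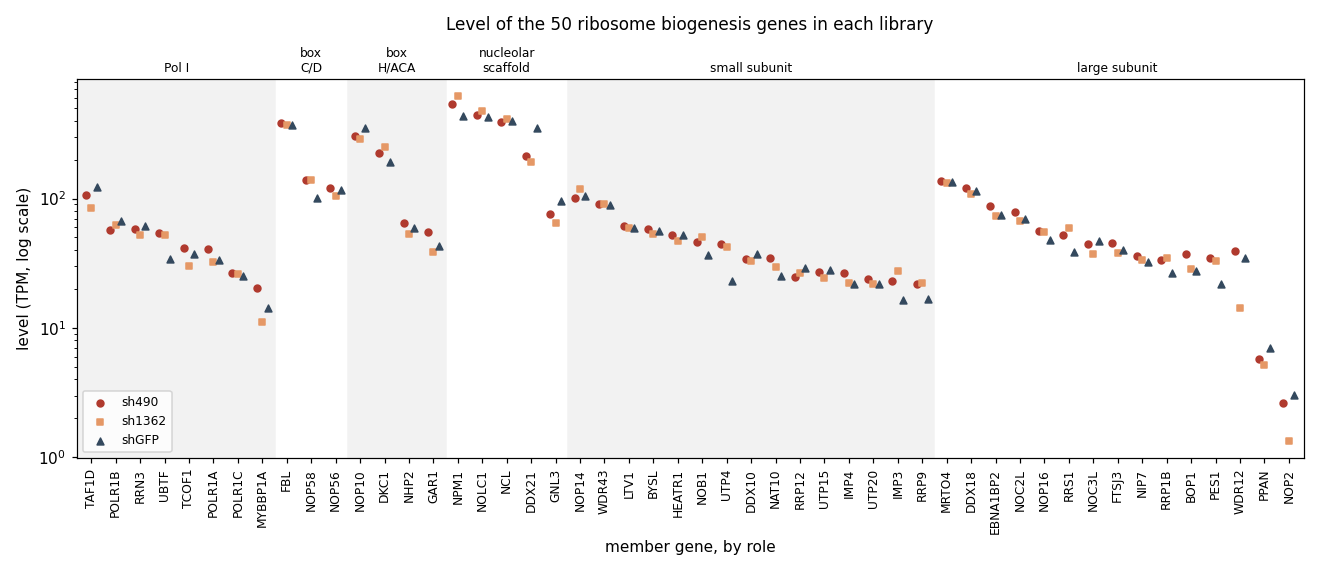
Level of each member in TPM (y axis, log scale) in sh490, sh1362 and shGFP; genes are grouped by role and ordered within a role by mean level. NPM1 reaches 543, 622 and 433 TPM, and NOP2 lies lowest with 2.62, 1.34 and 3.0 TPM.

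To ask whether silencing YES1 went with a change in ribosome biogenesis, both hairpin libraries were taken as 1 group against shGFP. No member passed. With the quasi-likelihood test of edgeR, adjusted by Benjamini-Hochberg over all 15708 genes tested, 0 of 50 members were higher and 0 lower, with a lowest adjusted p of 0.986. Over all genes 0% were called higher and 0.0255% lower, the 4 lower being YES1 (log2 fold -3.60) and 3 red cell genes. DESeq2 and limma-voom called 0 members as well. At an unadjusted p under 0.05, edgeR had 1 member higher (UTP4) and 1 lower (DDX21), where 2.27% and 2.09% of all genes lay. Without a filter on low counts UTP4 had the lowest adjusted p among members, 0.422. There the median gene took its spread from other genes alone. In the edgeR fit with the filter, each gene has 1 residual degree of freedom for its spread, from the difference between the hairpins. That spread was drawn toward the spread of other genes, which weighed as a median of 7.17 prior degrees of freedom. With no partner, shGFP was given the same spread. UTP4 did not pass at near 1.9-fold the control with each hairpin, so changes of that size could go uncalled. In bulk RNA, fewer cells expressing a gene and less RNA per cell cannot be told apart.

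By size alone, each hairpin was set against shGFP in the 48 members with a mean of 5 CPM or more, as the difference in log2 CPM. Most members stayed near the control level. The median log2 fold of the members was 0.11 with sh490 and 0.07 with sh1362, beside 0.00 and -0.01 over all 11634 genes at that level. Under the other scalings tried these medians lay between 0.10 and 0.15, and between 0.07 and 0.11. With each hairpin 31 of the 48 members lay above shGFP and 17 below it. Of all genes, 49.9% (sh490) and 50.7% (sh1362) lay below. With sh490, 3 members were at least 1.5-fold higher (6.25%) and 1 lower (2.08%), where 7.03% and 6.32% of all genes lay. With sh1362, 6 were higher (12.5%) and 2 lower (4.17%), against 11.5% and 15.2% of all genes. At 2-fold, 0 members were higher and 0 lower with sh490, where 1.39% and 1.42% of all genes lay, and 0 were higher and 1 lower with sh1362, where 3.29% and 5.99% lay. At this cut of 5 CPM, the shares of members higher at 1.5-fold thus lay near the background with both hairpins. Those on the lower side were under it. The background at 5 CPM holds more genes of low counts. Among genes at 20 CPM or more, 8.70% of 46 members and 8.72% of 8039 genes were at least 1.5-fold from shGFP with sh490. With sh1362 these shares, both directions together, were 15.2% and 21.7%. These comparisons share the shGFP library, so likeness between them is not counted as a result.

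For most members the difference from shGFP lay within counting error. The exact 95% counting interval of the log2 fold held no change for 29 of 48 members with sh490 (60.4%) and 27 with sh1362 (56.2%), beside 57.3% and 44.1% of all genes. It lay above no change for 12 members with sh490 and 15 with sh1362, where 20.9% and 26.8% of all genes did, and below it for 7 and 6, where 21.8% and 29.2% did. Among genes at 20 CPM or more, the SD of the log2 folds was 0.29 over 46 members and 0.35 over 8039 genes with sh490, and 0.38 and 0.53 with sh1362.

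**Figure D3:**
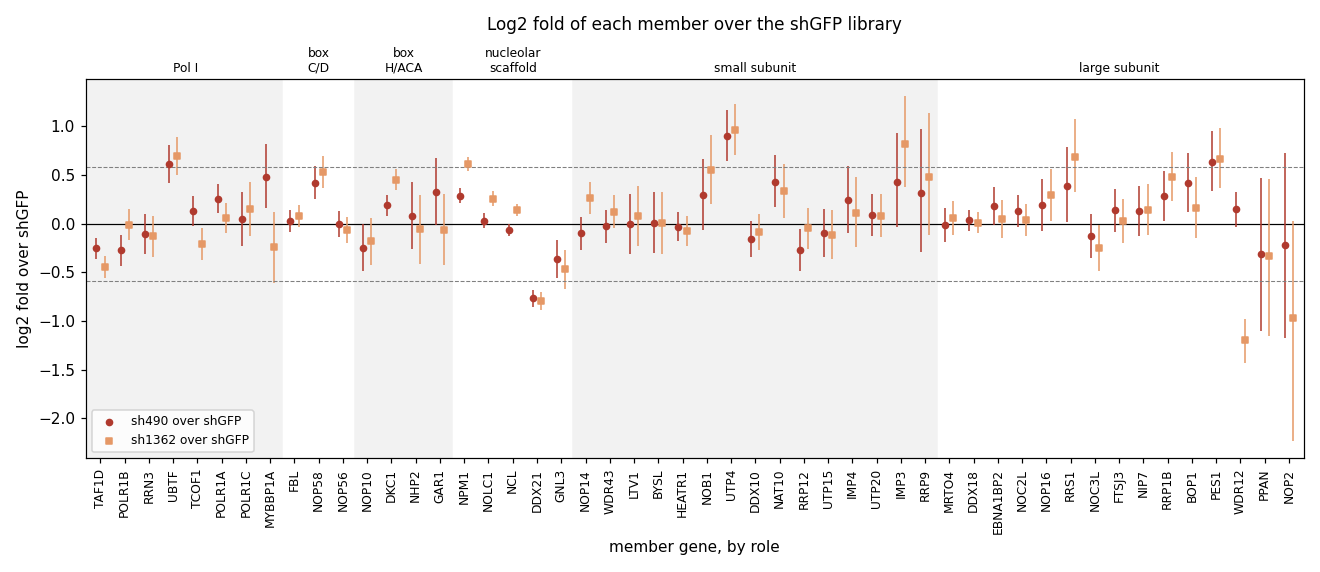
Log2 fold of each of the 50 members over shGFP (y axis) with sh490 and sh1362; bars are exact 95% counting intervals and dashed lines mark 1.5-fold. DDX21 lies at -0.77 and -0.79, UTP4 at 0.90 and 0.96, and WDR12 at 0.15 and -1.20.

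Among Pol I genes, UBTF was the member farthest from the control, while the polymerase subunits POLR1A, POLR1B and POLR1C lay nearer to it. UBTF, the factor that binds and opens the rDNA promoter, had 96.6 CPM in sh490 and 102 in sh1362 against 63.3 in shGFP. Both hairpin libraries lay above the control, by log2 0.61 (counting interval 0.42 to 0.81) and 0.69 (0.50 to 0.89), and UBTF did not pass (edgeR log2 fold 0.65, SE 0.29, adjusted p 0.986). TAF1D, a subunit of the SL1 promoter factor, had 217 and 190 CPM against 259, log2 folds of -0.25 (-0.36 to -0.15) and -0.45 (-0.56 to -0.34). POLR1A, the largest Pol I subunit, had 142 and 123 CPM against 119, and POLR1B, its catalytic partner, 92.2 and 111 against 112. With sh490 their counting intervals lay on opposite sides of no change, at 0.11 to 0.41 and -0.44 to -0.11. With sh1362 both intervals held no change. POLR1C, shared with Pol III, had 37.7 and 40.6 CPM against 36.6. RRN3, which links the polymerase to the promoter, had 62.5 and 61.3 CPM against 67.2, within counting error with each hairpin. Over the 8 genes the log2 folds had medians of 0.09 (sh490) and -0.07 (sh1362).

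Of other Pol I genes, 8 of 9 listed were at 5 CPM or more and 0 passed the edgeR test. The 2 most changed of the list, the SL1 subunits TAF1C and TAF1A, lay on opposite sides of the control, at low means of 8.58 and 9.57 CPM. TAF1C had 96 and 64 counts with the hairpins against 24 in shGFP (log2 folds 1.24 and 0.77), and TAF1A 62 and 52 counts against 67 (-0.80 and -0.95). TAF1B, also of SL1, had 101 and 74 counts against 43 (0.50 and 0.17).

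Of the snoRNP core proteins, most lay near the control. NOP58, a scaffold of box C/D snoRNPs, had 118 CPM in sh490 and 127 in sh1362 against 88.1 in shGFP, log2 folds of 0.42 (0.25 to 0.59) and 0.53 (0.36 to 0.70). Its partner NOP56 had 153, 146 and 153 CPM, and FBL 212, 220 and 208. Thus NOP58 was the box C/D protein set apart from the control beyond counting error, and it did not pass the edgeR test (adjusted p 0.986). Of the box H/ACA proteins, which also bind telomerase RNA, the pseudouridine synthase DKC1 had 244 and 293 CPM against 214, log2 folds of 0.19 (0.08 to 0.30) and 0.45 (0.34 to 0.56). NOP10 had 43.0 and 45.0 CPM against 51.1, and NHP2 25.0 and 22.6 against 23.6. GAR1 had 28 CPM in sh490 and 21.4 in sh1362 against 22.3, and its intervals against shGFP held no change.

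Some members are also hosts of the guide RNAs. Inside the spans of 8 members (TAF1D, NOP56, NOP58, DKC1, NCL, GNL3, WDR43 and PPAN) lie 33 snoRNA genes on the same strand by GENCODE version 29, of which TAF1D holds 8 and GNL3 6. These libraries were made from polyadenylated RNA, and the counts over all 33 snoRNA genes came to 10 (sh490), 8 (sh1362) and 6 (shGFP), so their levels could not be compared. The 7 hosts at 5 CPM or more had medians of -0.03 (sh490) and 0.12 (sh1362) in log2 fold, beside 0.13 and 0.06 for the 41 other members.

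The nucleolar scaffolds and chaperones lay on both sides of the control. DDX21 (ENSG00000165732.13, chromosome 10, 68956170 to 68985068, plus strand, GRCh38), an RNA helicase that couples Pol I transcription to rRNA processing, had 270 CPM in sh490 and 265 in sh1362 against 460 in shGFP. The hairpin libraries lay near each other and well under the control, at 58.8% and 57.7% of its level, log2 folds of -0.77 (-0.85 to -0.68) and -0.79 (-0.88 to -0.71). DDX21 rests on 2144, 1958 and 2224 counts and shares no exonic base with another gene, yet did not pass (edgeR log2 fold -0.78, SE 0.26, unadjusted p 0.0155, adjusted p 0.986). The direction was the same under each normalization, filter and tool tried, with adjusted p of 0.516 or more. These settings reuse the same 3 libraries, so the like direction is no separate check. NPM1 (ENSG00000181163.13, chromosome 5, 171387116 to 171411137, plus strand) had 534 and 668 CPM against 438, log2 folds of 0.29 (0.21 to 0.36) and 0.61 (0.54 to 0.68). It did not pass (edgeR adjusted p 0.986). NPM1 has 49 listed pseudogenes with 83, 109 and 44 counts between them, so some of its reads may have been lost as aligning to several places.

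GNL3 (nucleostemin), a nucleolar GTPase, had 63.6 CPM in sh490 and 59.0 in sh1362 against 81.7 in shGFP, log2 folds of -0.36 (-0.55 to -0.17) and -0.47 (-0.67 to -0.27). NCL had 686 and 793 CPM against 718, 95.6% and 110% of the control. NOLC1 had 453 and 530 CPM against 444. The 5 scaffolds thus spread widely: their log2 folds ran from -0.77 to 0.29 with sh490 and from -0.79 to 0.61 with sh1362.

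**Figure D4:**
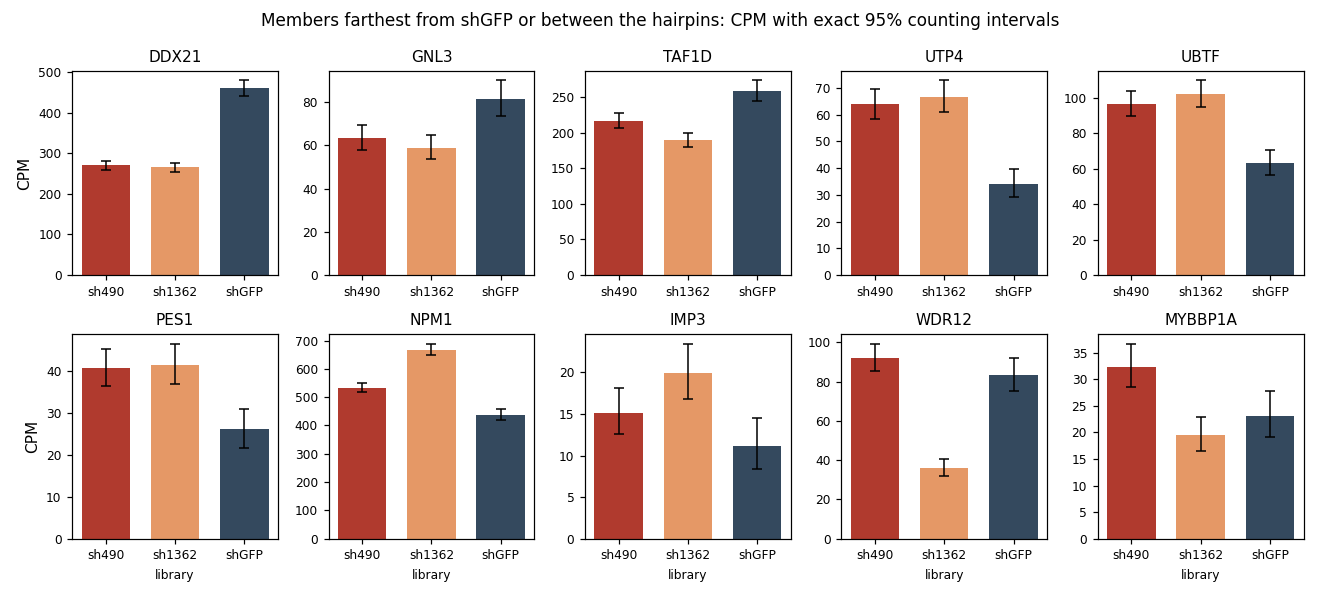
CPM (y axis, from 0, a scale for each gene) of 10 members, picked for their distance from shGFP or between the hairpins, in sh490, sh1362 and shGFP; error bars are exact 95% counting intervals. DDX21 is near 270 and 265 CPM with the hairpins and 460 in shGFP, and WDR12 stands at 36.2 CPM in sh1362.

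Small-subunit factors were led by UTP4, which lay apart from its partners. UTP4 (ENSG00000141076.18, chromosome 16, 69131291 to 69231130, plus strand), a processome protein that also takes part in rDNA transcription, had 63.8 CPM in sh490 and 66.6 in sh1362 against 34.1 in shGFP. Both hairpin libraries stood near 1.9-fold the control, log2 folds of 0.90 (0.65 to 1.17) and 0.96 (0.71 to 1.23), and UTP4 did not pass (edgeR log2 fold 0.93, SE 0.30, unadjusted p 0.0149, adjusted p 0.986). UTP15, HEATR1 and WDR43, which join UTP4 in the same subcomplex, had differences of -0.10, -0.03 and -0.03 (sh490) and -0.11, -0.07 and 0.12 (sh1362) on the log2 scale, each within counting error. IMP3 had 15.1 and 19.9 CPM against 11.2, log2 folds of 0.43 (-0.04 to 0.93) and 0.82 (0.38 to 1.31), from 120, 147 and 54 counts. Its U3 partner IMP4 had 26.2 and 24.0 CPM against 22.1.

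NOB1, the endonuclease that makes the final cut of small-subunit rRNA, had 24.8 CPM in sh490 and 29.8 in sh1362 against 20.3 in shGFP, log2 folds of 0.29 (-0.06 to 0.66) and 0.55 (0.21 to 0.91). The rRNA acetyltransferase NAT10 had 46.9 and 43.7 CPM against 34.7, log2 folds of 0.43 and 0.33. NOP14 had 91.6 and 118 CPM against 98.0. BYSL and LTV1, factors of late small-subunit particles, had log2 folds of 0.01 and -0.01 with sh490 and 0.01 and 0.08 with sh1362. Over the 15 factors the log2 folds had medians of 0.01 for sh490, which ran from -0.0004 to 0.05 over the scalings, and 0.11 for sh1362.

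Large-subunit factors included a complex whose 3 genes differed in their values. PES1, BOP1 and WDR12 form the PeBoW complex, which is needed to process large-subunit rRNA. WDR12 (ENSG00000138442.9, chromosome 2, 202874782 to 203014798, minus strand) had 92.2 CPM in sh490, 36.2 in sh1362 and, in the control, 83.3. Its level was thus low in the sh1362 library, at 43.4% of shGFP (log2 fold -1.20, -1.43 to -0.98), and near the control with sh490 (0.15, -0.03 to 0.33). PES1 had 40.6 and 41.4 CPM against 26, 156% and 159% of shGFP, and BOP1 had 37.1 and 31.0 CPM against 27.7, 134% and 112%. PES1 and WDR12 did not pass the edgeR test (adjusted p 0.986 each).

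RRS1, which brings the 5S particle to the large subunit, had 23.1 CPM in sh490 and 28.4 in sh1362 against 17.6 in shGFP, log2 folds of 0.39 (0.01 to 0.78) and 0.69 (0.32 to 1.08). MRTO4 had 89.2 and 93.8 CPM against 90.3, and the helicase DDX18 243 and 238 against 237, so these abundant factors lay within counting error. NOP2 and PPAN, at under 5 CPM, had wide intervals that held no change in each library pair: -1.17 to 0.72 and -2.23 to 0.03 for NOP2. Over the 13 factors at 5 CPM or more the log2 folds had medians of 0.15 (sh490) and 0.05 (sh1362). With sh490, PES1 was at least 1.5-fold higher (1 of 13) and 0 were lower, where 7.03% and 6.32% of all genes lay. With sh1362, PES1 and RRS1 were higher (2 of 13) and WDR12 lower (1 of 13), where 11.5% and 15.2% of all genes lay.

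The hairpin libraries were also set directly against each other, and few members lay far apart between them. The median log2 difference of sh490 over sh1362 was -0.02 over 48 members, turning to 0.013 with library totals as the scaling, beside 0.02 over all genes. At least 1.5-fold apart were 2 members, both higher with sh490 (4.17%), and 0 higher with sh1362, where 12.2% and 8.18% of all genes lay. At 2-fold this left 1 and 0 members, where 3.88% and 2.02% of all genes lay. WDR12 was 2.54-fold higher with sh490 than with sh1362 (log2 1.34, 1.15 to 1.56). MYBBP1A, a nucleolar regulator of rDNA transcription, had 32.4 CPM in sh490, 19.5 in sh1362 and 23.2 in shGFP, a log2 difference of 0.72 (0.43 to 1.04) between the hairpins. GAR1 differed by 0.38 (0.09 to 0.69) and TCOF1 (treacle, a scaffold of Pol I factors) by 0.34 (0.20 to 0.49), with 122 CPM in sh490 and 96.4 in sh1362. On the other side IMP3 (-0.39, -0.76 to -0.04), NOP14 (-0.36, -0.51 to -0.22), NPM1 (-0.32, -0.38 to -0.26) and RRS1 (-0.30, -0.60 to -0.01) were higher with sh1362. These values compare libraries, and no test was made.

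Members within 1 Mb of each other are given side by side. On chromosome 16, UTP4, NIP7 and NOB1 are such neighbours, and their log2 folds were 0.90, 0.13 and 0.29 (sh490) and 0.96, 0.14 and 0.55 (sh1362). On chromosome 2, NOP58 and WDR12 lie 571121 bases apart, with 0.42 and 0.15 (sh490) and 0.53 and -1.20 (sh1362). On chromosome 3, GNL3 and RRP9 lie 739252 bases apart, with -0.36 and 0.32 (sh490) and -0.47 and 0.48 (sh1362). The 50 members sit on 18 chromosomes, 8 of them on chromosome 2.

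Of 121 further Pol I, subunit assembly, exosome and snoRNP assembly genes, 120 were tested and 0 passed the edgeR test. Among the 117 at 5 CPM or more, 4 were at least 1.5-fold higher (3.42%) and 2 lower (1.71%) with sh490, where 7.03% and 6.32% of all genes lay. With sh1362, 12 were higher (10.3%) and 4 lower (3.42%), where 11.5% and 15.2% lay. Their medians were 0.03 and 0.08. By the naming rule these include RIOK2, a kinase of late small-subunit particles, with 54.2 CPM in sh490 and 82.7 in sh1362 against 39.3 in shGFP, and TBL3, a processome protein, with 12.4 and 11.2 against 6.41. RSL24D1, a placeholder protein of large-subunit particles, had 116 and 106 CPM against 65.7, and the kinase NOL9 of rRNA processing 40.6 and 35.3 against 23.6. The RNA exosome, which trims rRNA precursors, had medians of -0.14 and -0.22, with 10 and 9 of its 12 genes below the same shGFP library, as were 49.9% and 50.7% of all genes. Its nuclease DIS3 had 37.2 and 40.5 CPM against 60.4, while its subunit EXOSC6 had 19.9 and 36.4 against 17.8. The snoRNP assembly list had medians of -0.06 and -0.15 over 9 genes.

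Cytosolic ribosomal protein genes had medians of 0.06 and 0.06 over 78 genes, and cytosolic aminoacyl-tRNA synthetases -0.09 and 0.03 over 20. None of either list passed the edgeR test over all genes, and whether the members differ from them was not tested. MYC had 79.3 CPM in sh490 and 96.3 in sh1362 against 56.2 in shGFP, and MYCL 84.4 and 75.4 against 70.1, neither past the test. MYCN had 0 counts in each library, which allows up to 0.385, 0.404 and 0.612 CPM, and its partner MAX had 21.7 and 21.1 CPM against 14.3. Beside these values, the 19 members at 5 CPM or more with an E-box had medians of 0.03 (sh490) and 0.08 (sh1362) in log2 fold, and the 21 with a window but no E-box 0.13 and 0.04.

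**Figure D5:**
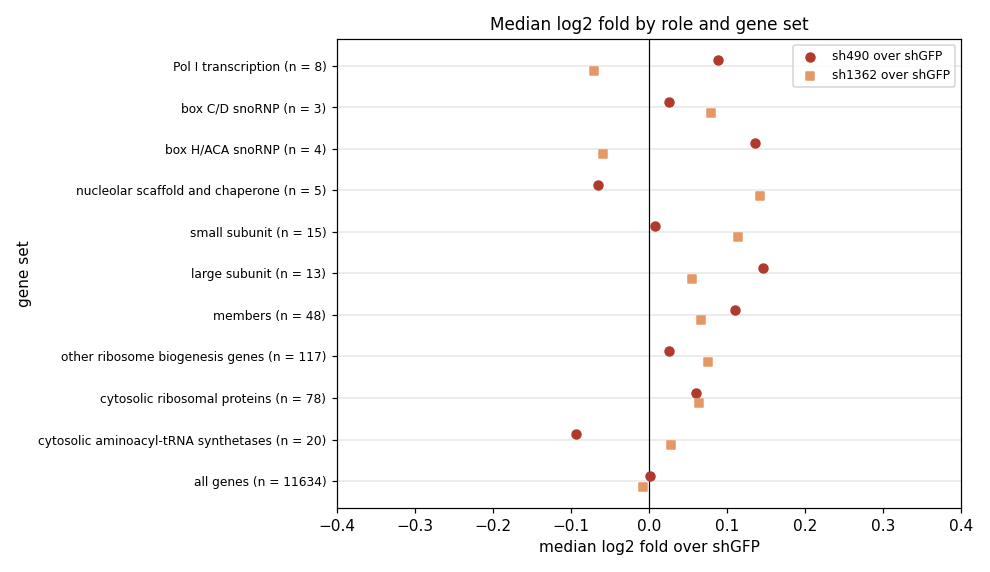
Median log2 fold over shGFP (x axis) with sh490 and sh1362 for each role, for all members, for other lists and for all genes at a mean of 5 CPM or more; n in each row label is the number of genes. The medians shown lie between -0.09 and 0.15, and the members are at 0.11 and 0.07 beside 0.00 and -0.01 for all genes.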

How the data were processed

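The authors deposited raw counts of reads per gene, 1 table per library, from polyadenylated RNA made into libraries with a SMARTer kit. Per the submitters' processing notes, STAR 2.6.1c and GRCh38 were used. Per the file headers, featureCounts 1.6.0 counted reads over GENCODE exons (the annotation named there is v32). The command names no strand or multi-mapping option, so strands were added together and reads fitting several places or genes were left out. Symbols were matched for 60340 of 60609 IDs. The tables were not altered before edgeR 4.0.16 (R 4.3.3; TMM, filterByExpr, robust quasi-likelihood test, two-sided, Benjamini-Hochberg over all genes, threshold 0.05). DESeq2 1.42.0 and limma-voom 3.58.1 were alternatives. The steps were tested on simulated data. Log2 folds of single libraries used TMM and a prior count of 2, in genes at a mean of 5 CPM or more. Counting intervals are exact binomial for folds and exact Poisson for CPM, at 95%. TPM used the Length column; snoRNA biotypes came from GENCODE 29 and promoters from RefSeq. Reads carry no molecular identifiers, so intervals and limits (3 counts where 0 were seen) cover counting error only. No label states separate cultures for the hairpins. A p-value here thus measures the spread between these libraries, drawn toward that of other genes, and this spread may be technical.

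The members, lists and roles were chosen with earlier results of these data known. Named by rule are any members past the test. In each role the rule takes the 3 farthest from shGFP by mean log2 fold (2 in roles of under 5) and the most abundant. It adds the 4 highest and 4 lowest between hairpins and those under 5 CPM. Members outside the rule, such as complex partners, NAT10, DDX18, BYSL, LTV1, NCL and NOLC1, were chosen after their values were seen. The levels per unshared exonic base, and the spread and 1.5-fold shares at 20 CPM, were added after seeing the data.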

Additional observations from a re-analysis of the deposited data

How the results depend on the processing

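The count of 0 members past the test was the same under other size factors, library totals, DESeq2, limma-voom, no low-count filter and a mean of 5 CPM. Over all genes, no filter gave 22 higher and 36 lower calls against 0 and 4, DESeq2 1 higher and limma-voom 2 lower; the cause was not tested. At 2-fold in place of 1.5-fold, the members called were 0 higher and 0 lower with sh490, 0 higher and 1 lower with sh1362, and 1 higher in sh490 over sh1362. At a looser threshold, 25% above or the inverse, they were 10 higher and 2 lower with sh490, where 18.3% and 17.3% of all genes lay, 12 and 4 with sh1362 (24% and 26.8%), and 4 and 3 in sh490 over sh1362 (24.6% and 19.8%). These follow from the threshold itself. The median log2 fold of members with sh490 was 0.15 with library totals and 0.15 with totals without mitochondrial and globin genes, against 0.11. That with sh1362 was 0.11 without those genes, against 0.07, and that of sh490 over sh1362 was 0.013 with library totals, against -0.02. With a cut at a mean of 1 or of 20 CPM in place of 5, the medians of members were lower with each hairpin. They were 0.09 with sh490, 0.06 with sh1362 and -0.0035 in sh490 over sh1362. The median of all genes moved by under 0.1 with each scaling. Of the mean of both hairpins, 4 members were at least 1.5-fold higher (8.33%) and 1 lower (2.08%), where 7.21% and 8.87% of all genes lay; with either hairpin left out these counts were 3 to 6 and 1 to 2, and the median 0.07 to 0.11, values without a test since no residual degree of freedom is left. No paired analysis was possible because the labels give the hairpin libraries and the shGFP library no shared replicate numbers. The lone shGFP library limits every comparison.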
